A study of Mus musculus with 18 samples.

Results

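The IFIT genes (interferon-induced proteins with tetratricopeptide repeats) of the mouse were examined in spleen: Ifit1, Ifit1bl1, Ifit1bl2, Ifit2, Ifit3 and Ifit3b, chosen by gene name, 6 of the 55385 genes in the deposited count and RPKM tables. Polyadenylated RNA was sequenced from 18 spleens, 6 of each of 3 genotypes, with 3 males and 3 females in each. WT mice were C57BL/6J. Dp16 mice carry a duplicated interval of chromosome 16 that corresponds to much of human chromosome 21, in every cell, and so have 3 copies of its genes in place of 2. The interval holds 4 interferon receptor genes (Il10rb, Ifngr2, Ifnar2 and Ifnar1). Dp16 2xIFNRs mice carry the same duplication with those receptor genes back at 2 copies. No group received a treatment. The series title calls the mice adult, while the age label, tagged as days after conception, reads 17.1 to 18.0 in WT and Dp16 and 17.7 to 18.0 in Dp16 2xIFNRs; the sources used here do not settle this, and age was not used. Each library is labelled as its own sample, but nothing states litters or batches, so the p-values measure the spread between these libraries.

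Background on the family comes from general knowledge. IFIT genes are low in resting cells and are among the most strongly induced targets of type I and type III interferons. Receptor binding activates the kinases Jak1 and Tyk2, which lead Stat2 and Irf9 to act in a complex on the interferon-stimulated response element (ISRE) near target genes. The proteins act on RNA: IFIT1 binds viral RNA whose 5′ cap lacks ribose methylation and blocks its translation, IFIT2 binds AU-rich RNA and is linked to cell death, and IFIT3 is a partner that stabilises the others. Ifit3b is a near copy of Ifit3, and Ifit1bl1 and Ifit1bl2 are Ifit1-like genes of the mouse whose roles are less well known.

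The 6 genes lie together on chromosome 19, outside the duplicated interval, within 99.3 kb (GRCm38, GENCODE vM21 gene models). From one end to the other they are Ifit2 (34550694 to 34576419, plus strand), Ifit3 (34583531 to 34588731, plus), Ifit1bl1 (34592891 to 34601956, minus), Ifit3b (34607970 to 34613401, plus), Ifit1bl2 (34617049 to 34640743, minus) and Ifit1 (34640871 to 34650009, plus). All 6 are annotated as protein-coding. Ifit1bl2 and Ifit1 start back to back with 127 bases between them. The protein-coding genes within 200 kb of the cluster are Ch25h, Lipa, Slc16a12 and Pank1.

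The ISRE core was searched as GAAANNGAAA on both strands (TTTCNNTTTC on the other) in RefSeq promoter windows of GRCm38.p6, which run from 250 bases before a gene's start to 50 after it. All 6 genes matched the table, with 9 windows. Over all 32851 windows, 3.44% held a match and 0.225% held 2 or more. Matches stood in the windows of 5 of the 6 genes, against 3.99% of the 27025 genes with a window. The sequences that hold them are shown because Ifit1, Ifit1bl2, Ifit3 and Ifit3b share these words near their starts and Ifit1bl1 differs from them, with each match in capitals and the rest in lower case, 5′ to 3′ on the strand of the gene (plus strand for the first).
between Ifit1bl2 and Ifit1 (chr19:34640744-34640870, plus strand, intergenic): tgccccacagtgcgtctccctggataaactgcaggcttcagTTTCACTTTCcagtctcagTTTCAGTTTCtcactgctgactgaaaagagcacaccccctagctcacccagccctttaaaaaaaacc
Ifit3, upstream (chr19:34583353-34583528, plus strand): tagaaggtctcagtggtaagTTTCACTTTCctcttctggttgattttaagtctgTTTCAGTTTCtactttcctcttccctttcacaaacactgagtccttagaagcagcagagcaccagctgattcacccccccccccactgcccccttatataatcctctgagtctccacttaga
Ifit3b, upstream (chr19:34607749-34607956, plus strand): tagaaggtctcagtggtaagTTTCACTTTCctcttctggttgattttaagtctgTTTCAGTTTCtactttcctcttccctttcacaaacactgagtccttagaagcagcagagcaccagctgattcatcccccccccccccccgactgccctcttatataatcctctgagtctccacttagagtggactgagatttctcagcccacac
Ifit1bl1, upstream (chr19:34601969-34602092, minus strand): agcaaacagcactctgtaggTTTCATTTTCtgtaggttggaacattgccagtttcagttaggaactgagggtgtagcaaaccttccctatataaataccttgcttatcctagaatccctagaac

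Ifit1 and Ifit1bl2 share one pair of matches, which lies between their divergent starts. Read from Ifit1 the pair begins 104 and 85 bases before the RefSeq start, and read from Ifit1bl2 it begins 70 and 51 bases before its start. Ifit3 and Ifit3b hold the same 2 matched 10-base words as that pair. Their printed stretches align over 176 bases, of which 175 (99.4%) are identical, leaving out 6 bases of Ifit3b that stand against gaps in Ifit3. Ifit1bl1 held 1 match at each of its 2 starts, with another word than the other genes; the match at its other start is not printed. No match was found in the 2 windows of Ifit2 or at the second start of Ifit1bl2, which says only that these letters are not in those windows. A match is a description of sequence, not a measured binding site.

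**Figure D1:**
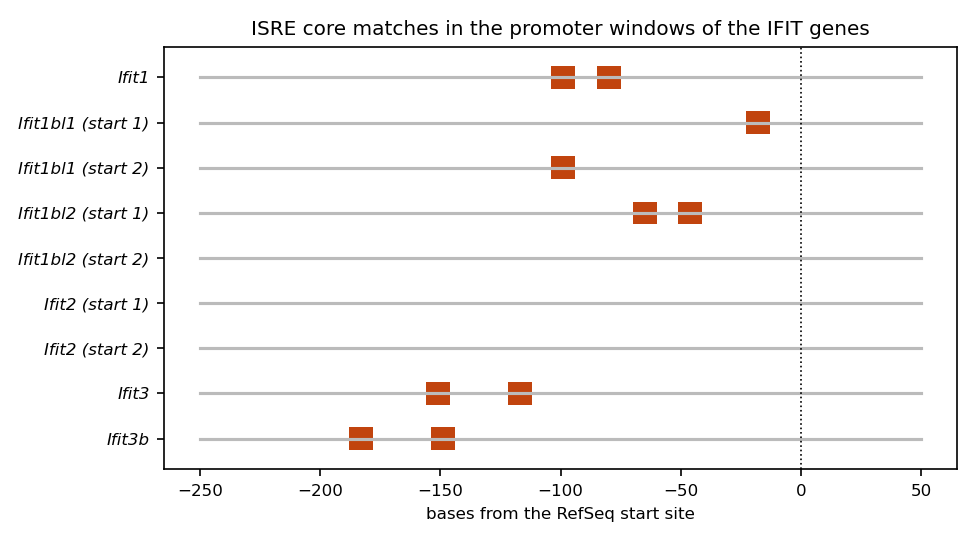
Positions of ISRE core matches (red boxes) in the 9 RefSeq promoter windows of the 6 IFIT genes, in bases from the start site on the gene's own strand; grey lines are the windows, 250 bases before to 50 after. Ifit1, Ifit3, Ifit3b and 1 start of Ifit1bl2 hold 2 matches each, and both Ifit2 windows hold none.

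The coding sequences of Ifit3 and Ifit3b (each 1212 bases) are 99.1% identical. Of the 150-base stretches of Ifit3 transcripts, the read length of the libraries, 18.6% occur unchanged in Ifit3b, and 16.0% of those of Ifit3b occur in Ifit3. How reads that match both were counted is not given in the sources used here, so the separate values of Ifit3 and Ifit3b are uncertain. Ifit1bl1 and Ifit1bl2 are 88.1% identical in coding sequence but share no 150-base stretch. Ifit1 is 75.1% identical to Ifit1bl1 and 74.7% to Ifit1bl2, and 1.24% of its 150-base stretches occur in Ifit1bl2.

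Library totals ran from 33998427 to 53021480 counts, and the label of sex matched the data in 18 of 18 libraries. The share of counts on Gm42418, a noncoding gene over ribosomal RNA sequence, ran from 0.691% to 5.51% and exceeded 4% in 4 libraries: WT replicate 4, Dp16 replicates 2 and 3 and Dp16 2xIFNRs replicate 5. Of the marker genes, edgeR called all 8 B cell markers lower in both Dp16 and Dp16 2xIFNRs than in WT. All 8 erythroid and 9 of 10 neutrophil markers were called higher in both. Over all tested genes, 16.6% were called higher and 13.2% lower in Dp16, and 17.3% and 14.2% in Dp16 2xIFNRs. In Dp16, 1 of 8 monocyte markers was called higher and 2 lower. For 7 red pulp macrophage markers these counts were 1 and 0, and for 6 plasmacytoid dendritic cell markers 2 and 3. In Dp16 2xIFNRs they were 2 and 0, 2 and 0, and 2 and 1 in the same order. Summed B cell markers ran from 1591 to 2342 RPKM in WT, 1080 to 1323 in Dp16 and 1109 to 1394 in Dp16 2xIFNRs. Summed erythroid markers ran from 5998 to 18949, 19329 to 36776 and 19396 to 39123 RPKM in the same order, and summed neutrophil markers from 627 to 2408, 3646 to 12670 and 4259 to 6958. None of the 7 T cell markers passed the test in either comparison with WT, and of 6 pancreatic acinar markers, Amy2a5 and Try4 had 0 counts in all libraries. The 1 acinar marker that passed the filter, Cela1, was called higher in Dp16 (log2 0.57, adjusted p = 0.00386, edgeR) and in Dp16 2xIFNRs (0.66, adjusted p = 0.00114). All values are from whole spleen, where fewer cells of a type and less RNA per cell cannot be told apart, and the part of these markers in the IFIT values was not tested.

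In WT spleen the family was led by Ifit3, at 15.6 ± 1.69 RPKM (SD, n = 6 in this and all following groups). RPKM is reads per kilobase of gene scaled to library size, so levels can be set side by side between genes. Ifit1bl1 followed at 8.25 ± 0.548, then Ifit2 at 5.40 ± 0.373, Ifit1 at 4.51 ± 0.686, Ifit3b at 2.99 ± 0.741 and Ifit1bl2 at 0.412 ± 0.168 RPKM. Ifit3 was the highest and Ifit1bl1 the next in all 18 libraries, and Ifit1bl2 was the lowest in all 18. Ifit1 and Ifit2, next to each other in level, changed places with genotype: Ifit2 was above Ifit1 in 6 of 6 WT libraries, in 1 of 6 Dp16 libraries and in 0 of 6 Dp16 2xIFNRs libraries. Ifit1 and Ifit3b kept their order in 17 libraries, and WT replicate 4 had Ifit3b above Ifit1. The summed RPKM of the 6 genes was 37.2 ± 3.10 in WT, 37.4 ± 6.75 in Dp16 and 38.5 ± 4.82 in Dp16 2xIFNRs, so the groups overlapped. These sums are scaled by library total. On log2(RPKM + 0.1) the median gene stood at -0.13 in Dp16 and -0.12 in Dp16 2xIFNRs against WT.

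**Figure D2:**
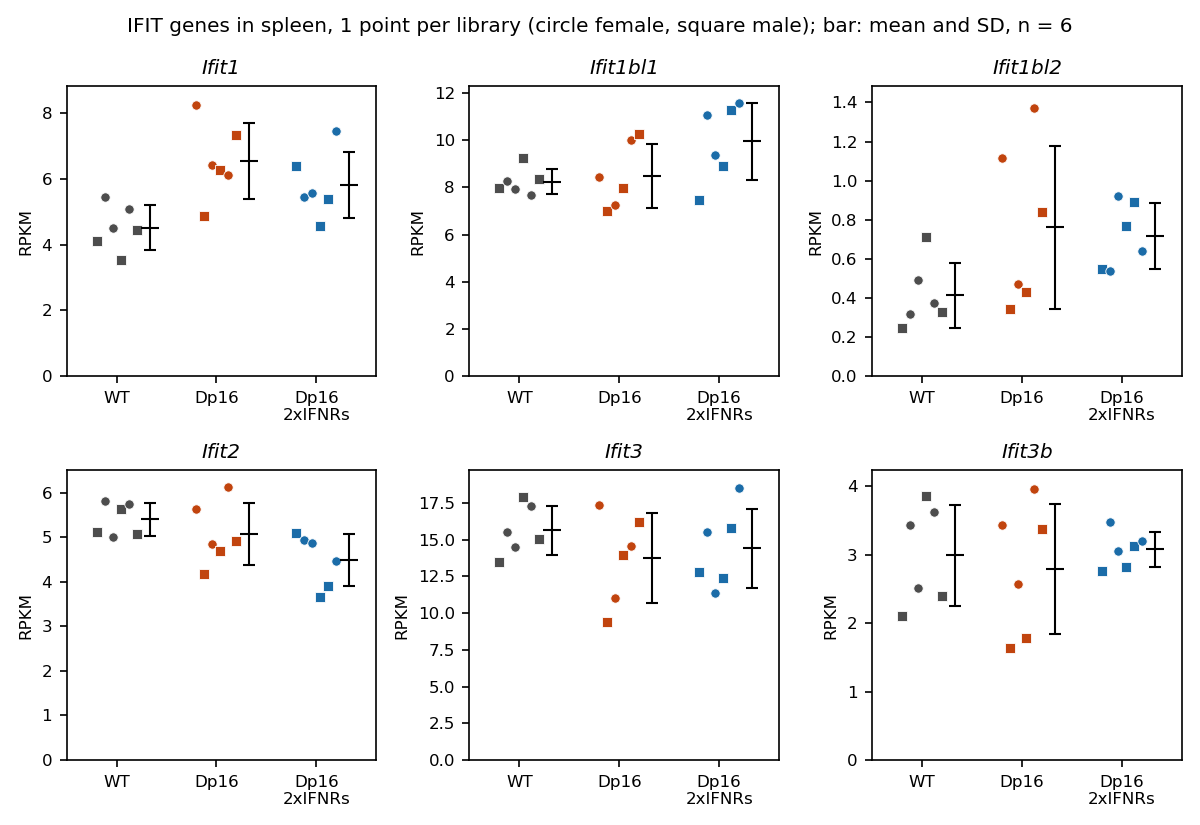
RPKM of each IFIT gene in the 18 libraries, by genotype; circles are females, squares males, and the bar is the mean with its SD (n = 6). Ifit1 is at 3.52 to 5.44 RPKM in WT and 4.87 to 8.25 in Dp16, while the 3 groups of Ifit3 and Ifit3b lie over each other.

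Ifit1, the sensor of RNA caps that lack ribose methylation, rose in Dp16. The 6 WT libraries (replicates 1 to 6) had 4.09, 5.44, 4.49, 3.52, 5.08 and 4.45 RPKM. The 6 Dp16 libraries had 8.25, 4.87, 6.43, 6.27, 6.12 and 7.33 RPKM. In Dp16, 5 of 6 libraries were above every WT library and replicate 2 was within the WT range. With counts scaled by TMM, edgeR's quasi-likelihood fit across all genes gave a log2 fold change of 0.66 ± 0.12 (SE, adjusted p = 0.000482), or 1.58-fold with a 95% interval of 1.32 to 1.88. The call stood in 30 of 32 alternative fits, and it was lost in females alone (log2 0.56, adjusted p = 0.0855) and with a block for the number code in the labels' descriptions (log2 0.64, adjusted p = 0.056). The value was 0.70 (adjusted p = 0.0035) without the 4 libraries over 4% Gm42418.

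Ifit1 was also called higher in Dp16 2xIFNRs than in WT. Its 6 libraries had 6.40, 5.44, 5.55, 4.57, 5.39 and 7.46 RPKM, all above the WT median, with 3 of them above every WT library. The log2 fold change was 0.48 ± 0.12 (adjusted p = 0.00485, edgeR), or 1.40-fold (1.17 to 1.67). It was not called in females alone (log2 0.40, adjusted p = 0.204), in males alone (log2 0.57, adjusted p = 0.0503) or with the description-code block (log2 0.45, adjusted p = 0.0582).

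Ifit1bl2, which starts next to Ifit1 on the opposite strand, was the least expressed member and rose in both duplicated genotypes. WT libraries had 0.247, 0.319, 0.491, 0.714, 0.374 and 0.329 RPKM. Dp16 libraries had 1.11, 0.341, 0.469, 0.429, 1.37 and 0.841, and Dp16 2xIFNRs libraries 0.550, 0.538, 0.922, 0.768, 0.892 and 0.639. Dp16 was split, with replicates 1, 5 and 6 above every WT library and replicates 2, 3 and 4 within the WT range. The 39 to 196 counts behind these values are the fewest of the family. The log2 fold change was 0.95 ± 0.33 in Dp16 (adjusted p = 0.0315, edgeR) and 0.92 ± 0.33 in Dp16 2xIFNRs (adjusted p = 0.0345). Both calls were near the threshold: leaving out 1 library ended each of them in 7 of 18 fits, with adjusted p up to 0.0935 in both comparisons. For Dp16 these were WT replicates 1, 2, 5 and 6 and Dp16 replicates 1, 5 and 6, and for Dp16 2xIFNRs they were WT replicates 1, 2, 5 and 6 and Dp16 2xIFNRs replicates 3, 4 and 5. The Dp16 call of Ifit1bl2 was also lost with the description-code block (log2 0.41, adjusted p = 0.743), with 12 libraries only (0.95, adjusted p = 0.0553), in males alone (0.45, adjusted p = 0.614), in females alone (1.39, adjusted p = 0.0600) and in limma with pseudocounts 0.1 and 1 (adjusted p = 0.0978 and 0.102), and the counts of Ifit1bl1 and Ifit1bl2 summed gave 0.23 (adjusted p = 0.184). For Dp16 2xIFNRs it was lost with upper quartile scaling, with that block, in either sex alone and in both limma fits, with adjusted p from 0.0510 to 0.313. Without the 4 libraries over 4% Gm42418 the Dp16 value was 1.53 (adjusted p = 0.00166).

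Ifit1bl1, the more abundant of the Ifit1-like genes, passed the test only for Dp16 2xIFNRs against WT. WT libraries had 8.00, 8.27, 7.96, 9.26, 7.68 and 8.36 RPKM, Dp16 libraries 8.45, 7.00, 7.24, 7.98, 10.0 and 10.3, and Dp16 2xIFNRs libraries 7.46, 11.1, 9.38, 8.90, 11.3 and 11.6. In Dp16 2xIFNRs, 4 of 6 libraries were above every WT library and replicate 1 was below all of them. The log2 fold change was 0.39 ± 0.12 (adjusted p = 0.0155, edgeR), and in Dp16 it was 0.15 ± 0.12 (adjusted p = 0.374). Dp16 2xIFNRs against Dp16 gave 0.23 (95% interval -0.01 to 0.48, adjusted p = 1), so the genotypes were not shown to differ. The call was lost without Dp16 2xIFNRs replicate 5 (log2 0.32, adjusted p = 0.0570) and in limma with pseudocounts 0.1 and 1 (log2 0.25 and 0.23, adjusted p = 0.111 and 0.11). It was also lost with the description-code block (0.35, adjusted p = 0.0820), in males alone (0.25, adjusted p = 0.453) and in females alone (0.52, adjusted p = 0.0673).

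Ifit2, the member that binds AU-rich RNA, was not called in any comparison. WT libraries had 5.11, 5.82, 5.00, 5.64, 5.75 and 5.08 RPKM, Dp16 libraries 5.63, 4.18, 4.85, 4.70, 6.14 and 4.91, and Dp16 2xIFNRs libraries 5.09, 4.95, 4.88, 3.66, 3.91 and 4.46. In Dp16 2xIFNRs, 5 of 6 libraries were below every WT library on the RPKM scale. The log2 fold change against WT was 0.02 ± 0.09 in Dp16 (adjusted p = 0.916, edgeR), negative in 4 of 7 other scalings, filters and tools, and -0.16 ± 0.09 in Dp16 2xIFNRs (adjusted p = 0.201). In limma on log2(RPKM + 0.1) the second value was -0.27 and was called (adjusted p = 0.037). RPKM uses the library total in place of TMM, and on that scale the median of all genes stood at -0.12 in this comparison and -0.13 in Dp16 against WT.

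Ifit3, the partner of the other IFIT proteins, and its near copy Ifit3b were not called either. Ifit3 had 13.5, 15.5, 14.5, 17.9, 17.3 and 15.0 RPKM in WT, 17.4, 9.42, 11.0, 14.0, 14.6 and 16.2 in Dp16, and 12.8, 15.6, 11.4, 12.4, 15.8 and 18.5 in Dp16 2xIFNRs. Ifit3b ran from 2.1 to 3.86 RPKM in WT, 1.63 to 3.96 in Dp16 and 2.77 to 3.48 in Dp16 2xIFNRs. The groups overlapped for both. The log2 fold change of Ifit3 was -0.07 ± 0.13 in Dp16 (adjusted p = 0.743, edgeR; 95% interval -0.35 to 0.21), and that of Ifit3b was -0.01 ± 0.19 (adjusted p = 0.986). Since reads of this pair may be split, their counts were also summed, which gave -0.06 (adjusted p = 0.787) in Dp16 and 0.03 (adjusted p = 0.907) in Dp16 2xIFNRs.

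In all, 2 of the 6 IFIT genes were called higher in Dp16 than in WT and none lower, where 16.6% of the 18634 tested genes were called higher and 13.2% lower. In Dp16 2xIFNRs against WT, 3 of 6 were called higher and none lower, where 17.3% of tested genes were higher and 14.2% lower. All 6 genes passed the filter on low counts. The 2 comparisons share the WT libraries. The median log2 fold change of the 6 genes was 0.08 in Dp16 and 0.27 in Dp16 2xIFNRs, against -0.01 in both over all tested genes. The balance of called genes depended on scaling: 3091 higher and 2462 lower in Dp16 became 2558 and 3333 with upper quartile scaling and 2163 and 3721 in limma on log2(RPKM + 0.1), while in Dp16 2xIFNRs 3217 and 2643 became 2677 and 3451, and 2265 and 3847.

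**Figure D3:**
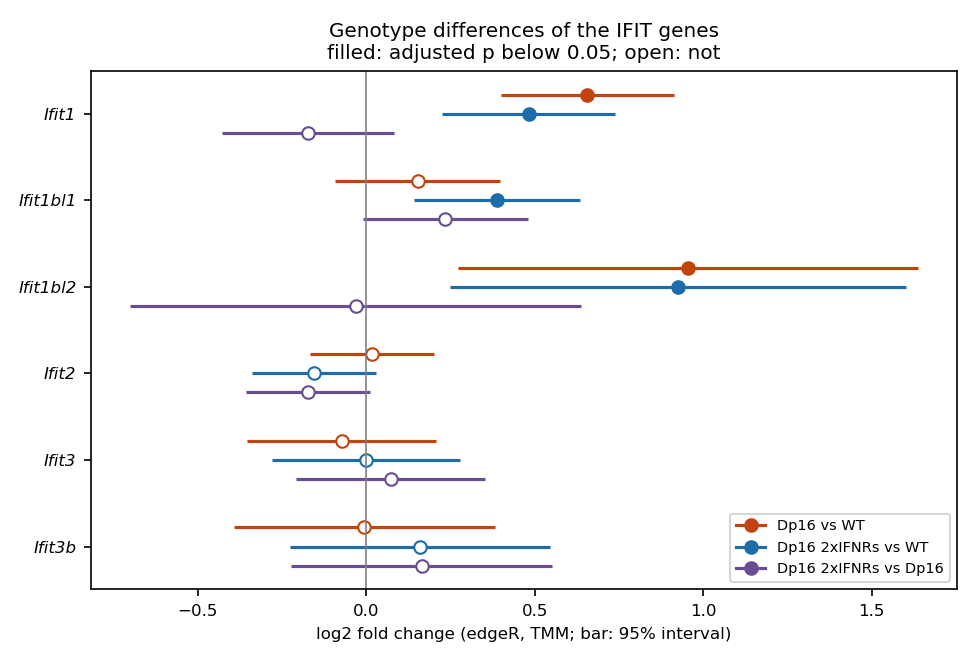
Log2 fold change of each IFIT gene in the 3 genotype comparisons (edgeR, TMM), with 95% intervals; filled points have an adjusted p below 0.05. Ifit1 and Ifit1bl2 are filled in both comparisons with WT, Ifit1bl1 in 1, and no gene is filled in Dp16 2xIFNRs against Dp16.

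Dp16 2xIFNRs against Dp16 asks what the receptor copy number does within the duplication. None of the 6 IFIT genes was called in edgeR or in DESeq2, none had an unadjusted p under 0.05, and 4 of the 18634 tested genes (0.0215%) were called in either direction. DESeq2 called 23 genes higher and 18 lower, and 438 genes had an unadjusted edgeR p under 0.05. Ifit1 differed by -0.17 on the log2 scale, a ratio of 0.886 with a 95% interval of 0.743 to 1.06. Ifit2 had a ratio of 0.888 (0.781 to 1.01), Ifit1bl2 0.979 (0.616 to 1.56), Ifit3 1.05 (0.865 to 1.28) and Ifit3b 1.12 (0.857 to 1.47). The intervals bound the size of a difference and do not show that the genotypes have equal levels. On the RPKM scale 1 Dp16 2xIFNRs library was below every Dp16 library for Ifit1, and 3 were above every Dp16 library for Ifit1bl1.

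The proportions between members were followed within libraries, chosen after their values were seen and given without a test. The ratio of Ifit1 to Ifit3 RPKM was 0.303, 0.351, 0.310, 0.196, 0.294 and 0.296 in WT and 0.475, 0.517, 0.584, 0.450, 0.419 and 0.452 in Dp16. The ranges of the 2 genotypes did not overlap, although the RPKM ranges of Ifit1 alone did. In Dp16 2xIFNRs the ratio was 0.50, 0.350, 0.487, 0.368, 0.342 and 0.403, which overlapped both. The ratio of Ifit1 to Ifit2 ran from 0.62 to 0.936 in WT, 0.997 to 1.49 in Dp16 and 1.10 to 1.67 in Dp16 2xIFNRs, and neither duplicated genotype overlapped WT. Of the 15 ratios between 2 members, these were the only ones without overlap with WT, 2 in Dp16 and 1 in Dp16 2xIFNRs. Each of them holds Ifit1, which was itself called higher. How often ratios of other gene pairs fail to overlap was not computed. The ratio of Ifit3b to Ifit3, for example, ran from 0.155 to 0.221 in WT and 0.128 to 0.271 in Dp16. A ratio within a library does not depend on how libraries are scaled. Ifit1 made up 12.2 ± 1.85% of the family's RPKM in WT, 17.6 ± 1.77% in Dp16 and 15.1 ± 2.00% in Dp16 2xIFNRs, and Ifit3 made up 42.0 ± 1.49%, 36.6 ± 2.65% and 37.3 ± 2.74%.

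**Figure D4:**
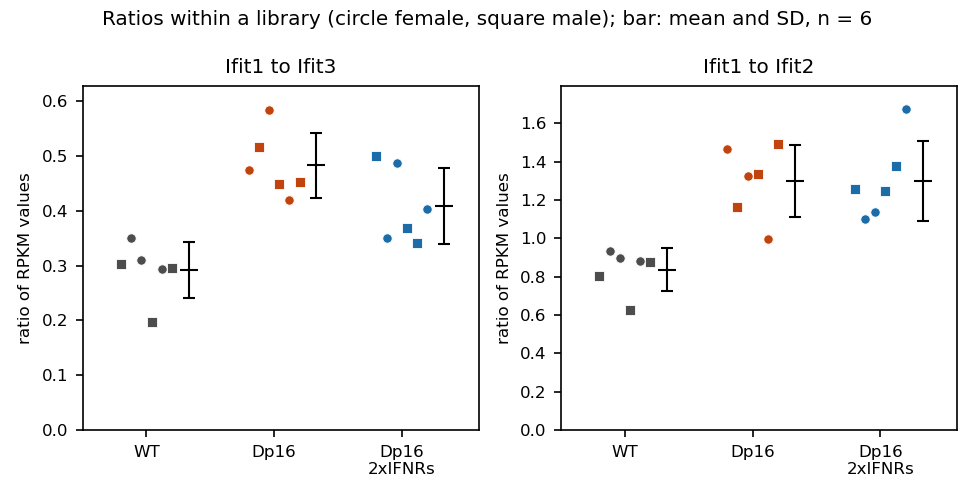
Ratio of Ifit1 to Ifit3 RPKM (left) and of Ifit1 to Ifit2 RPKM (right) within each library, by genotype; circles are females, squares males, and the bar is the mean with its SD (n = 6). Every Dp16 library is at 0.419 or more on the left, above the highest WT library at 0.351.

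Some libraries held the extreme values of their genotype for several members, in opposite directions. A Dixon outlier check flagged no library for any member. Dp16 replicate 2 had the lowest value of its genotype for all 6 IFIT genes, the smallest library total and 4.55% of counts on Gm42418. WT replicate 4 had the lowest Ifit1 of its genotype but the highest Ifit1bl1, Ifit1bl2, Ifit3 and Ifit3b, with 5.51% on Gm42418. Without WT replicate 4 the log2 fold change of Ifit1 in Dp16 was 0.61 and that of Ifit1bl2 was 1.23 (adjusted p = 0.00673, edgeR). The part of the Gm42418 share in these values was not tested. The spread within a genotype, as a coefficient of variation of RPKM, was lowest for Ifit1bl1 (6.64%) and Ifit2 (6.90%) in WT and highest for Ifit1bl2 in Dp16 (55.0%).

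Males had lower fitted values than females for all 6 genes, but none was called, and 48 of 18634 genes (0.258%) were called between the sexes. The median log2 difference of all tested genes was -0.0056, and the share of genes lower in males was not computed. Ifit1 differed by -0.22 ± 0.10 on the log2 scale (unadjusted p = 0.0422, adjusted p = 0.539, edgeR) and Ifit2 by -0.17 ± 0.07 (unadjusted p = 0.0328, adjusted p = 0.506). In WT, Ifit1 was 5.01 ± 0.480 RPKM in females and 4.02 ± 0.471 in males (SD, n = 3). In Dp16 it was 6.93 ± 1.15 in females and 6.16 ± 1.23 in males. Mean RPKM went the other way for Ifit1bl1 in WT, at 7.97 ± 0.294 in females and 8.54 ± 0.650 in males. So did Ifit1bl2 in WT (0.395 and 0.430) and in Dp16 2xIFNRs (0.699 and 0.737). No IFIT gene had a called interaction of sex and genotype (smallest unadjusted p 0.151, Ifit1bl2 in Dp16), and edgeR called no gene of all tested for either interaction, with 439 and 745 genes at an unadjusted p under 0.05.

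The members were then compared with each other across the 18 libraries on log2 CPM, as 15 pairs with permutation p-values adjusted over the pairs. Libraries were permuted without regard to genotype or sex, so a genotype difference shared by 2 members counts toward these p-values. The centred and within-genotype values are given without a test. The pairs with the 3 highest correlations were Ifit1bl2 with Ifit3b (Pearson's r = 0.649, adjusted permutation p = 0.0204; Spearman's rho = 0.670, adjusted p = 0.0173), Ifit1bl1 with Ifit1bl2 (r = 0.645, adjusted permutation p = 0.0204; rho = 0.699, adjusted p = 0.0173) and Ifit3 with Ifit3b (r = 0.641, adjusted permutation p = 0.0204; rho = 0.672, adjusted p = 0.0173). Without the 2 libraries farthest from the median they were 0.517, 0.670 and 0.489. With values centred on genotype and sex they were 0.759, 0.510 and 0.651. Within genotypes Ifit1bl2 and Ifit3b gave 0.599 in WT, 0.935 in Dp16 and 0.216 in Dp16 2xIFNRs, and Ifit1bl1 and Ifit1bl2 gave 0.62, 0.755 and 0.344. Ifit3 and Ifit3b, whose reads may be split, gave 0.956, 0.673 and 0.673. Another pair, Ifit1bl1 with Ifit3b, passed by rank alone (rho = 0.620, adjusted permutation p = 0.0291; r = 0.569, adjusted permutation p = 0.0530).

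Ifit1 and Ifit2 had no pair that passed by either measure. The r of Ifit2 ran from -0.166 with Ifit1bl1 to 0.424 with Ifit3b (adjusted permutation p = 0.168; rho = 0.527, adjusted p = 0.0652). The r of Ifit1 with Ifit3 was 0.231 (adjusted permutation p = 0.447; rho = 0.280, adjusted p = 0.391), and 0.528 once centred on genotype and sex. Its r with the divergent neighbour Ifit1bl2 was 0.498 (adjusted permutation p = 0.0905; rho = 0.494, adjusted p = 0.0838), and -0.0608 once centred. Within Dp16 Ifit1 and Ifit3 gave 0.833, and within WT -0.0370.

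**Figure D5:**
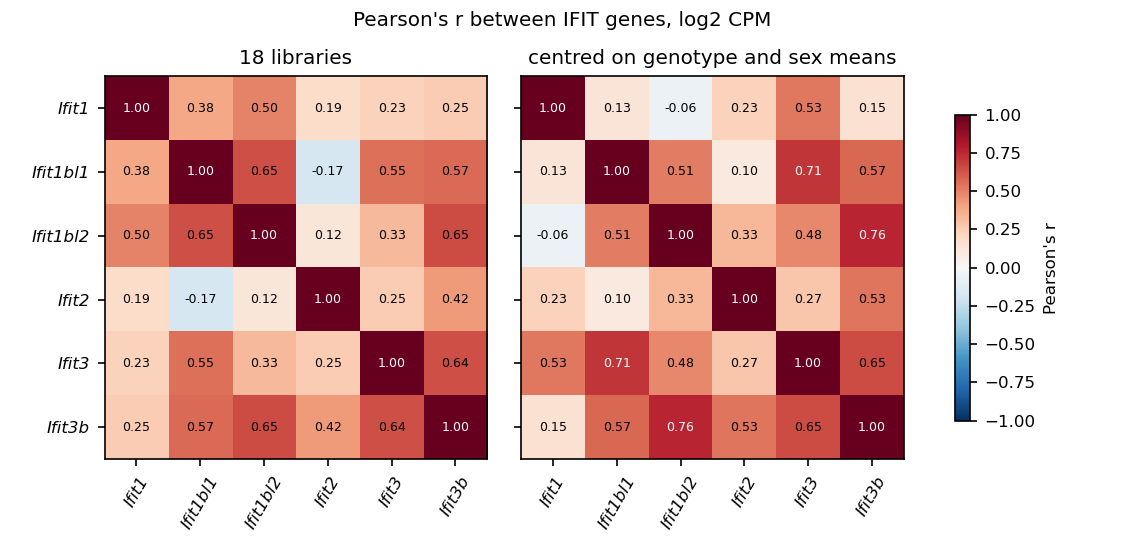
Pearson's r between IFIT genes on log2 CPM over 18 libraries (left) and with values centred on genotype and sex means (right). The r of Ifit1 with Ifit3 is 0.23 on the left and 0.53 on the right, and that of Ifit1 with Ifit1bl2 goes from 0.50 to -0.06.

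Of all other tested genes, the 5 most like the family by mean Pearson's r over the 6 members (18 libraries, a description without a test) were Gna14 (mean r 0.581), Prelid2 (0.561), Akap1 (0.556), Fads3 (0.553) and Ss18l2 (0.550). Gna14 encodes a G protein alpha subunit, and Akap1 anchors protein kinase A at mitochondria. Centred on genotype and sex, the mean r of these 5 genes was 0.504 to 0.559. Their r with Ifit2 was low, from 0.141 for Ss18l2 to 0.256 for Akap1.

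The rest of the interferon pathway was read from lists of genes, whose counts stand beside 16.6% of all tested genes called higher and 13.2% lower in Dp16, and 17.3% and 14.2% in Dp16 2xIFNRs. Of 21 interferon ligands, 17 had 0 counts in all libraries, among them 13 Ifna genes, and the summed ligand RPKM was 1.13 ± 0.464 in WT, 1.11 ± 0.400 in Dp16 and 0.723 ± 0.135 in Dp16 2xIFNRs. A count of 0 allows up to 3 counts in a library, 0.0566 to 0.0882 CPM, for counting error only. Ifng, the type II interferon, was the 1 ligand that passed the filter and was not called. Its log2 fold changes were 0.07 (adjusted p = 0.906, edgeR) in Dp16 and -0.52 (adjusted p = 0.264) in Dp16 2xIFNRs. Its mean level was 1.10, 1.10 and 0.714 RPKM in WT, Dp16 and Dp16 2xIFNRs, most of the summed ligand RPKM. Ifnb1 had 0 counts in all Dp16 and Dp16 2xIFNRs libraries and at most 2 in WT.

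In Dp16, 5 of 6 receptor genes were called higher than in WT: Ifnar2 (log2 0.68, adjusted p = 2.22e-07, edgeR), Il10rb (0.46), Ifnlr1 (0.94), Ifnar1 (0.30) and Ifngr2 (0.30). The 4 genes called in Dp16 2xIFNRs against Dp16 were all receptors, Ifnar2 at -0.59, Il10rb at -0.54, Ifngr2 at -0.57 and Ifnar1 at -0.46. Ifnar2, a chain of the type I receptor, stood at 27.4 to 31.0 RPKM in WT, 39.5 to 46.7 in Dp16 and 27.4 to 31.0 in Dp16 2xIFNRs. Ifnlr1, a chain of the type III receptor outside the interval, stayed higher than WT in Dp16 2xIFNRs (0.56, adjusted p = 0.0213), and Ifngr2 was lower (-0.27, adjusted p = 0.0147).

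Of 9 carriers of the signal, 1 was called higher and 3 lower in Dp16 against WT (16.6% and 13.2% of all tested genes). In Dp16 2xIFNRs against WT, 1 was called higher and 4 lower (17.3% and 14.2%). The share of carriers called higher was no larger than over all tested genes, while the share called lower was larger. The list was not tested as a set. Irf7, which amplifies interferon production and is itself an interferon target, rose by 0.76 and 0.54 on the log2 scale (adjusted p = 6.56e-05 and 0.000886, edgeR). The kinases Jak1 (-0.35 and -0.41) and Tyk2 (-0.29 and -0.31) fell, as did Stat2 (-0.28 and -0.33). Irf9, the DNA-binding part of the ISRE complex, named for that role after its value was seen, was at 0.13 in Dp16 (adjusted p = 0.308, edgeR) and was not called.

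Of 6 feedback genes, 3 were called higher and 1 lower in Dp16 (16.6% and 13.2% of all tested genes), and 2 higher and 1 lower in Dp16 2xIFNRs (17.3% and 14.2%). Isg15, a ubiquitin-like interferon target, rose by 2.13 and 1.96 on the log2 scale, from 47.9 ± 25.6 RPKM in WT to 187 ± 53.3 and 167 ± 47.0. Usp18, which removes Isg15 from proteins and damps receptor signalling, rose by 0.57 and 0.44. Ptpn6, a phosphatase, fell by 0.40 and 0.37.

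Of 26 other antiviral interferon-stimulated genes, 11 were called higher and 1 lower in Dp16, and 10 higher and 1 lower in Dp16 2xIFNRs. Their median log2 fold change was 0.32 and 0.24, against -0.01 over all tested genes in each comparison. Rsad2, the antiviral enzyme viperin, rose by 1.92 and 1.74, from 29.3 ± 15.8 RPKM in WT to 99.5 ± 23.7 and 87.3 ± 28. Oas1a, an RNA-activated synthetase, rose by 0.56 in Dp16 and 0.29 in Dp16 2xIFNRs (adjusted p = 0.0301). Isg20, an exonuclease, rose by 1.57 in Dp16 and 1.60 in Dp16 2xIFNRs. Ddx58, which encodes the RNA sensor RIG-I, fell by 0.56 and 0.63 (adjusted p = 0.000151 and 5.66e-05). None of the 26 was called in Dp16 2xIFNRs against Dp16 in edgeR. Only 4 of all 18634 tested genes (0.0215%) were, so this count does not show equal levels. In that comparison 10 of the 26 had a positive log2 fold change, and the median was -0.04, against 0.001 over all tested genes. Values ran from -0.32 (Oasl2) to 0.09 (Bst2), with Oas1a at -0.26. The list was not tested as a set. Against WT, the IFIT genes hold both called members (Ifit1 at 0.66 in Dp16) and uncalled ones (Ifit3 at -0.07). So does the list of other antiviral genes.

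IFIT proteins compete with translation factors and read the state of the RNA cap, so enzymes of the cap and known partners were listed as well. Of these 9 genes, 2 were called higher and 1 lower in Dp16, and 2 higher and 2 lower in Dp16 2xIFNRs, which is near the share of all tested genes. The capping enzyme Rngtt (0.25 and 0.32) and the cap guanine methyltransferase Rnmt (0.28 and 0.30) rose. Cmtr1, which adds the ribose methyl group that IFIT1 detects the absence of, fell by 0.36 in Dp16 2xIFNRs (adjusted p = 0.0400, edgeR), while its value in Dp16 was -0.20 (adjusted p = 0.259). Tmem173, the adaptor STING, fell by 0.21 in both.

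Around the cluster, none of the 4 neighbouring genes was called in Dp16, with log2 fold changes from -0.63 (Ch25h, an interferon-induced cholesterol hydroxylase) to 0.17 (Lipa, lysosomal acid lipase). In Dp16 2xIFNRs, Pank1, a pantothenate kinase, fell by 0.34 (adjusted p = 0.0300, edgeR) and the other 3 were not called.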

How the data were processed

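Poly(A) RNA of 18 mouse spleens was sequenced as strand-specific, paired-end libraries, per the labels' protocols. The deposited counts are whole-number read counts per gene. GRCm38, HTSeq 0.6.1, SAMtools 1.5, HISAT2 2.1.0, FastQC 0.11.5 and bcl2fastq are named in the submitters' processing notes; their roles, and the strand setting and treatment of reads matching 2 genes, are not given in the sources used here. The deposited RPKM values equal the authors' counts divided by library total and 1 gene length, checked on 11538 genes (largest relative deviation 2.3e-15), so RPKM and counts are not independent. Within genotypes, the counts of 45 library pairs gave chi-square values of 35.1 to 200.4 per degree of freedom, so none was counted as a copy.

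Computed here: filterByExpr by genotype, TMM scaling, then a single robust quasi-likelihood fit with terms for genotype and sex (edgeR 4.0.16 in R 4.3.3) over all 18 libraries, with Benjamini-Hochberg adjustment over all tested genes and calls below 0.05. Correlations used log2 CPM with prior count 2 and 100000 permutations. Alternatives used DESeq2 1.42.0, limma 3.58.1 on log2(RPKM + 0.1) or + 1 (mean RPKM over 0.1), other scalings, filters, covariates and left-out libraries. Titles' sample numbers did not pair libraries: mean correlation of deviations 0.0111 over 18 same-numbered pairs, and 3 libraries correlated best with their own number. Gene positions came from GENCODE vM21 (GRCm38), where the identifiers of all 6 genes match the count table's; promoter sequences came from RefSeq. A planned comparison of protein sequences was replaced by one of coding sequences. Named genes were the 6 members, the 5 most correlated genes, up to 4 genes per list and comparison by smallest p, and genes within 200 kb. The members and gene lists were chosen with earlier results of these data known.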

Additional observations from a re-analysis of the deposited data

How the results depend on the processing

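The log2 fold changes of the 6 IFIT genes were refitted with other scalings, filters, tools, covariates and sets of libraries. Ifit1 was positive against WT in all 32 refits of each comparison. Counts were also summed for Ifit3 with Ifit3b and for Ifit1bl1 with Ifit1bl2. Each of these 2 refits was counted for both genes, which added 4 values. There were then 196 refitted values of members per comparison. Of these, 180 kept their side of the threshold in Dp16 against WT, 172 in Dp16 2xIFNRs against WT and 196 in Dp16 2xIFNRs against Dp16. The number of IFIT genes called higher in Dp16, 2 in the reported fit, was 0 with the description-code block and in females alone, and 1 with 12 libraries only, in males alone and in limma on either RPKM pseudocount. Leaving out each library in turn gave 1 to 2. For Dp16 2xIFNRs against WT, 3 in the reported fit, it was 0 with the description-code block and in males or females alone, and 1 in limma on either pseudocount, which also called 1 gene lower (Ifit2). Leaving out each library gave 1 to 3, with 1 without Dp16 2xIFNRs replicate 5. Only 11 libraries carry a description code shared with another, over 5 codes, so that block leaves few to compare. WT and Dp16 share a code only in WT replicate 4 and Dp16 replicate 2. The part of this in the lost calls was not tested.

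Over all genes, calls are given as a percentage of the 18634 genes tested in the reported fit. Genes called higher in Dp16 came to 9.08% with the description-code block, 9.15% in males alone and 2.55% in females alone, against 16.6% in the reported fit. Genes called lower came to 4.48%, 4.37% and 1.83%, and to 19.97% and 20.55% in limma with pseudocounts 0.1 and 1, against 13.2%. For Dp16 2xIFNRs against WT, genes called higher came to 11.0% in males and 0.886% in females, against 17.3%. Genes called lower came to 6.25% and 0.51%, and to 9.31% without the libraries over 4% Gm42418, against 14.2%. For Dp16 2xIFNRs against Dp16, DESeq2 called 0.123% higher and 0.0966% lower (23 and 18 genes), and 0 genes were called lower with the description-code block or in males or females alone. Fits of 1 sex have fewer samples; the cause of the other shifts was not tested. With the replicate block, 16.1% of genes passed as higher and 13.6% as lower for Dp16 against WT. Ifit1 was then at 0.65 (adjusted p = 0.00094, edgeR); it changed no call of an IFIT gene. The correlations between members changed little with prior count 0.5, for example from 0.123 to 0.121 for Ifit1bl2 with Ifit2. No pair changed its side of the threshold. The 39 counts of Ifit1bl2 in the lowest libraries limit its precision.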

Other observations

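The labels' descriptions carry a number code whose meaning is not stated. WT replicate 4, Dp16 replicate 2 and Dp16 2xIFNRs replicate 4 share 1 code, and each had the lowest Ifit1 of its genotype, at 3.52, 4.87 and 4.57 RPKM. For Ifit3 the same libraries ranked 6, 1 and 2 of 6 from the lowest, at 17.9, 9.42 and 12.4 RPKM. The code was looked at after these values were seen.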
